A study of Caenorhabditis elegans with 18 samples.

Results

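The intervals described here are the rows of the intron count table that list 2 or more genes, joined by a plus sign, as their hosts. There were 5919 such intervals of 106818 in the table, 5.54% of all, in 841 different combinations of hosts, and the other 100899 intervals list 1 gene. The choice used the host column of the table and no measured value.

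The worms were young adult Caenorhabditis elegans hermaphrodites, synchronized and taken before embryos formed, grown on NGM plates with OP50 bacteria at 20 °C. All groups carried the same alleles, mog-7::degron::gfp and sun-1p::TIR1::mRuby, so the ethanol controls have the tagged MOG-7 and the TIR1 transgene too. The groups were 2 h of auxin, 1 h of auxin and, as the common control, 2 h of ethanol, with 6 libraries each, 1 per batch. The labels mark each library with its batch (I, II, V, VII, VIII or X). The sun-1 promoter drives TIR1 in the germ line, while the RNA came from whole worms, so reads of somatic tissues are counted with those of the germ line. Fewer cells of a type and less RNA per cell cannot be told apart in such bulk samples. Auxin on worms without the degron was not analysed here, so auxin itself and loss of MOG-7 cannot be told apart. Both auxin groups are compared with the same ethanol libraries, and the 1 h group has no ethanol control of its own duration.

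MOG-7 is a germline factor of pre-mRNA splicing. Splicing removes introns from the nascent transcript, and reads inside an intron come from RNA that still holds it. Auxin makes TIR1 recruit the degron-tagged protein for degradation, so the manipulation acts on the protein and the RNA of mog-7 does not check it. Worm genes are densely packed. Neighbours on one strand can overlap at their ends, often where genes are transcribed together as an operon, and short RNA genes can lie inside the introns of a larger gene. The piRNA genes (named 21ur in worms) encode small RNAs bound by a Piwi-type Argonaute in the germ line, and many of them cluster on chromosome IV.

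The label of several hosts was mostly a property of the locus and rarely of the intron. In the WBcel235 annotation, 5724 intervals were an intron of exactly 1 of the listed hosts, 127 were an intron of 2 listed hosts and 68 were an intron of none. A single host spanned the interval in 5666 cases, and 2 hosts spanned it in 223. All annotated hosts lay on the strand of their interval, and in 692 of the 834 combinations with every host annotated, exon overlap on 1 strand linked the hosts. The rows are therefore called multi-gene intervals below, and the listed gene whose annotated intron an interval is, where there is 1, is called its intron host.

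Most rows listed 2 hosts (5231 intervals), 471 listed 3, and the rest listed 4 to 6. In all, 1856 different genes were listed, of which 1149 were in the gene table. Combinations of 2 or more protein-coding hosts held 2992 intervals. A protein-coding host with a piRNA gene held 1833, one with another ncRNA or lincRNA 461, one with a pseudogene 233, and one with a snoRNA, miRNA, tRNA or snRNA 215. Chromosome IV carried 32.9% of multi-gene intervals against 15.2% of all intervals, and 1156 of the 1833 intervals with a piRNA host (63.1%) lay on it. The median length was 64 bases, against 59 bases for intervals under 1 gene.

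Gene reads per library ranged from 18153020 to 30747645, and reads in multi-gene intervals from 11627 to 62689. Of the 5919 intervals, 995 had no read in any library and 1069 (18.1%), from 291 combinations, passed the filter on low counts. An interval that is high in only 1 group can pass that filter through that group, so counts over these 1069 describe them and do not speak for the other members. Levels are given in RPM, here interval reads per 1000000 reads of the gene table, which lists protein-coding genes. A count of 3, taken as the floor, corresponds to between 0.0976 and 0.165 RPM, and in 384 tested intervals every ethanol library was at or under it. Defining markers of the labelled material were present: all 71 germline markers had at least 10 counts in every ethanol library. Summed germline marker levels were 14918 to 17813 RPM at 2 h of auxin, 17613 to 20245 at 1 h and 18094 to 21597 in ethanol. Summed levels of the somatic markers, of which 47 of 48 were in the gene table and none was at 0 throughout, were 63394 to 80946 RPM at 2 h of auxin, 60437 to 76555 at 1 h and 54204 to 73663 in ethanol. The part of these marker differences in the results below was not tested.

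Multi-gene intervals held more reads under auxin, summed over all of them. Their summed level was lowest 2216, median 2476 and highest 2732 RPM in the 2 h auxin libraries, 1803, 2001 and 2146 in the 1 h auxin libraries, and 627, 651 and 689 in the ethanol libraries. No library of either auxin group overlapped the ethanol group, and the lowest 2 h library lay above the highest 1 h library. The ratio of means was 3.75 for 2 h and 3.05 for 1 h against ethanol, and within batches it ran from 3.36 to 3.99 and from 2.82 to 3.39. For intervals under 1 gene the same ratios were 3.25 and 2.67. Multi-gene intervals took 7.08% to 7.23% of all interval reads in the 2 h libraries, 6.99% to 7.16% in the 1 h libraries and 6.14% to 6.31% in the ethanol libraries. Per 1000 reads of their summed hosts, the intervals held 32.3 ± 2.6 reads at 2 h, 26.0 ± 2.1 at 1 h and 8.46 ± 0.31 in ethanol (SD, n = 6 each).

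**Figure D1:**
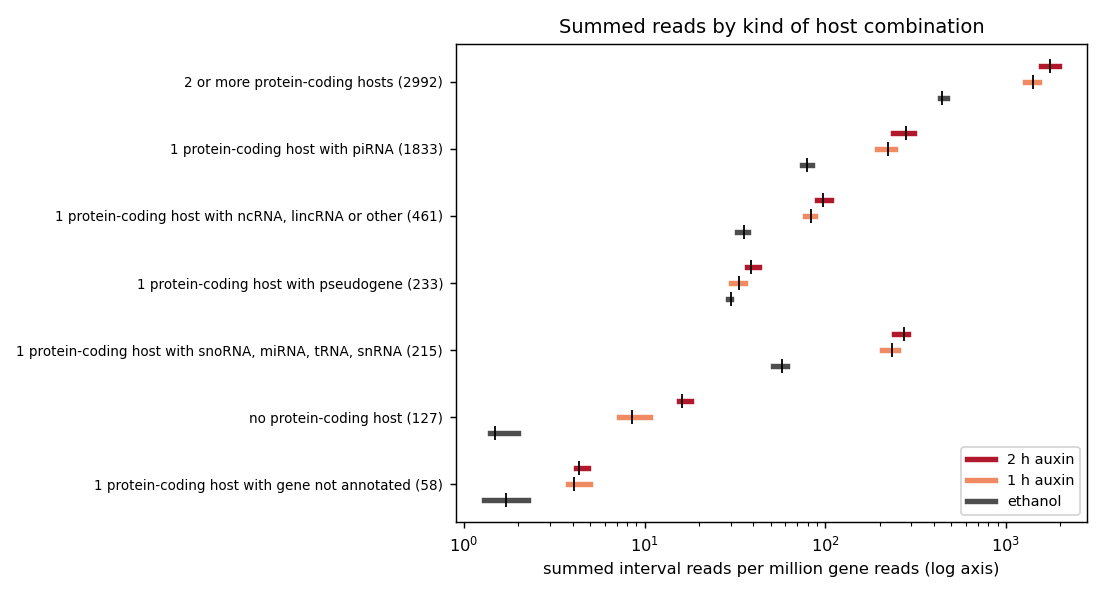
Summed interval RPM (log axis) for each kind of host combination, with the number of intervals in parentheses. Each bar runs from the lowest to the highest of 6 libraries and the tick is the median; from top to bottom within a row the groups are 2 h auxin, 1 h auxin and ethanol, and both auxin bars lie to the right of the ethanol bar in every row except the pseudogene row, where the lowest 1 h library (30.2) meets the highest ethanol library (30.2).

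Sums by kind of host differed in size. In combinations of 2 or more protein-coding genes the ratio of mean summed levels was 3.90 at 2 h and 3.14 at 1 h. Loci with a piRNA gene summed to 237, 280 and 309 RPM (lowest, median, highest) at 2 h of auxin, 194, 223 and 242 at 1 h, and 74.2, 79.8 and 84.9 in ethanol, a 3.44-fold ratio of means at 2 h. Loci with a pseudogene differed least, at 36.7, 38.9 and 43.1 at 2 h, 30.2, 33.5 and 35.9 at 1 h, and 28.9, 30.0 and 30.2 in ethanol. The 127 intervals with no protein-coding host had the largest ratio of any kind, 10.5 at 2 h and 5.6 at 1 h, on a low level: 15.5, 16.2 and 18.2 at 2 h, 7.22, 8.56 and 10.6 at 1 h, and 1.38, 1.49 and 1.98 in ethanol. The 2 h libraries of that kind all lay above the 1 h libraries, which all lay above the ethanol libraries. Only 50 of those 127 intervals had any read, and 5 were tested. The interval at V:13527680-13527728, listed under pseudogenes only, alone had a mean of 4.30 RPM at 2 h and 0.0906 in ethanol. Sorted by the gene table instead, the 129 intervals with no host in it had ratios of 4.33 at 2 h and 2.68 at 1 h. These ratios are descriptions of sums, each weighted to its most heavily read intervals, and no test was made between kinds.

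At the level of single intervals, 916 of the 1069 tested multi-gene intervals rose and 25 fell after 2 h of auxin (edgeR quasi-likelihood test, Benjamini-Hochberg adjusted p under 0.05 over all intervals tested). That is a share of 88.0%, beside 86.3% of all 15224 intervals tested (84.8% higher and 1.48% lower). After 1 h, 900 rose and 16 fell, beside 84.1% of all intervals called (83.1% higher and 0.979% lower). Between 2 h and 1 h, 306 were higher and 14 lower at 2 h, beside 30.1% of all intervals called (28.9% higher and 1.2% lower). All these shares are near the background, so the counts are not a result about multi-gene intervals as such. Without batch V, 213 of 1071 were called between 2 h and 1 h, beside 3081 of all 15239 intervals tested. Those lower at 2 h numbered 9, 8, 8 and 7 without batch I, II, V or VII, in that order. Over all intervals the lower calls numbered 137, 148, 95 and 129 in the same order. The median fitted log2 fold change was 3.33 at 2 h and 2.94 at 1 h, against 3.31 and 2.93 over all intervals tested.

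The split between higher and lower depends on the scaling. When libraries were scaled by TMM factors of the interval counts themselves, which centres on intervals rather than on genes, the split at 2 h was 740 higher and 223 lower, that at 1 h 753 higher and 205 lower, and that between 2 h and 1 h 95 higher and 50 lower, of 1087 multi-gene intervals tested. Over all 15303 intervals tested under it, 10308 were higher and 3304 lower at 2 h, 10318 higher and 2968 lower at 1 h, and 1280 higher and 738 lower between 2 h and 1 h. This scaling moved the median log2 fold change of all tested intervals to 1.90 at 2 h and 1.81 at 1 h. The scaling by gene-table sums is used throughout what follows.

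**Figure D2:**
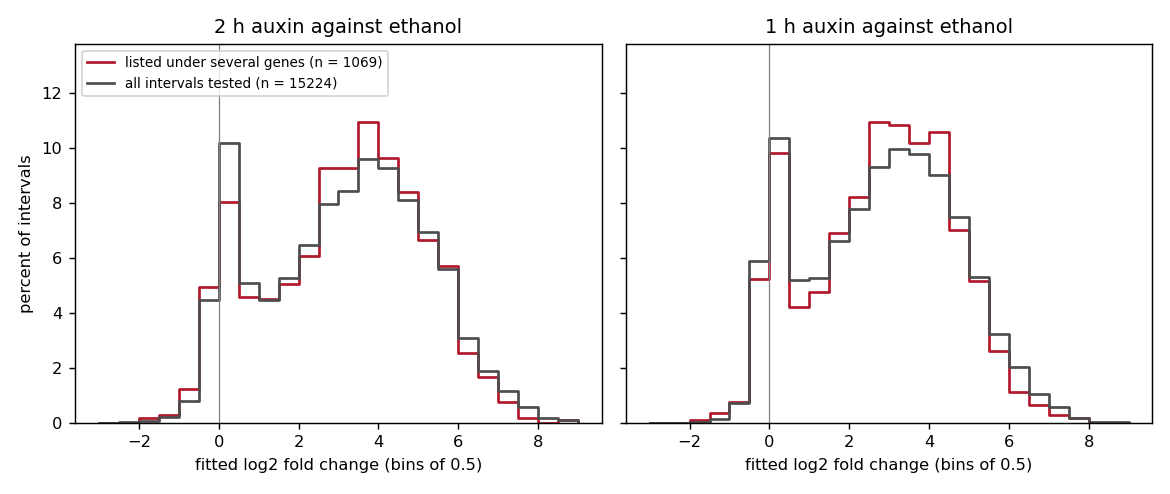
Distribution of fitted log2 fold changes at 2 h (left) and 1 h (right) of auxin against ethanol, as the percent of intervals in bins of 0.5, for the 1069 tested multi-gene intervals and for all 15224 tested intervals. The lines of both sets follow each other, with a group of intervals near 0 and a broad group around the medians of 3.33 and 2.94.

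Most of the 10 multi-gene intervals with the most reads belonged to genes of translation. eef-1A.1 encodes translation elongation factor 1A and is listed together with the microRNA gene cel-mir-5549. Its intron at III:6970397-6970445 (minus strand) had 48.7, 56.5 and 61.3 RPM (lowest, median, highest) at 2 h of auxin, 32.7, 44.1 and 51 at 1 h, and 1.82, 3.74 and 6.86 in ethanol. All auxin libraries lay above all ethanol libraries, and the log2 fold change was 3.86 ± 0.16 (SE) at 2 h, with an adjusted p of 3.4e-29. Another intron, at III:6971267-6971314, had 35.8, 43.5 and 49.7 at 2 h, 29.4, 35.0 and 40.9 at 1 h, and 5.68, 6.65 and 8.31 in ethanol. The intron at III:6971484-6971536 had 33.8, 39.5 and 41.8 at 2 h, 31.1, 34.9 and 36.4 at 1 h, and 0.537, 2.16 and 4.31 in ethanol. The ethanol libraries spread widely there, with 11 to 93 counts each, and all lay below the auxin libraries. Gene reads of eef-1A.1 itself did not differ detectably, at 9433 ± 490 RPM at 2 h and 9415 ± 897 in ethanol (SD, n = 6 each, log2 fold change 0.00, adjusted p = 0.98).

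Introns of ribosomal protein genes in the same list rose by very different amounts. In rps-4, a small-subunit protein gene listed with Y43B11AR.3, the intron at IV:7084357-7084402 (minus strand) had 17.4, 20.4 and 24.1 RPM at 2 h, 11, 14.0 and 17.9 at 1 h, and 0.163, 0.328 and 0.474 in ethanol. Its log2 fold change was 5.93 ± 0.18 at 2 h (adjusted p = 1.4e-35), and the ethanol libraries held 4 to 13 counts. In rpl-5, a large-subunit protein gene listed with bcs-1, the intron at II:8570122-8570173 (plus strand) had 22.5, 25.3 and 27.7 at 2 h, 21.9, 23.5 and 25.9 at 1 h, and 16.7, 17.2 and 18.3 in ethanol. All auxin libraries lay above the ethanol libraries there too, with a log2 fold change of 0.55 ± 0.10 (adjusted p = 9.5e-07), which became -0.71 under the interval-based scaling. Both rpl-7 introns, listed with F53G12.9, were between these, at 2.08 ± 0.11 and 2.33 ± 0.24.

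Other heavily read intervals had small fold changes. The rack-1 intron (a ribosome-associated scaffold gene, listed with mspn-1) had 11.6, 14.5 and 16.5 RPM at 2 h, 11, 12.3 and 14.1 at 1 h, and 6.44, 8.86 and 10.5 in ethanol, with auxin libraries above ethanol libraries and a log2 fold change of 0.74 ± 0.12 at 2 h, which became -0.52 under the interval-based scaling. The gen-1 intron (a resolvase of DNA repair, listed with bcas-2 and 21ur-12830) had 12, 13.8 and 15.6 at 2 h, 12.6, 13.2 and 14.8 at 1 h, and 9.36, 11.8 and 14.5 in ethanol. Its groups overlapped, and the log2 fold change of 0.22 ± 0.11 missed the threshold (adjusted p = 0.058), passed it with batch as a block (0.23, adjusted p = 0.015), and became -1.03 under the interval-based scaling. The vbh-1 intron at I:3160108-3160154 (a DEAD-box helicase gene of the germ line, listed with K09H9.7 and K09H9.11) fell, with 15.5, 16.3 and 17.9 at 2 h, 17.7, 19.1 and 20.8 at 1 h, and 18.2, 19.7 and 23.1 in ethanol. At 2 h all libraries lay below ethanol (log2 fold change -0.28 ± 0.10, adjusted p = 0.0072), and at 1 h they overlapped it. Relative to its hosts the same intron gave 0.04 (adjusted p = 0.70), and vbh-1 gene reads fell to 567 ± 17 RPM at 2 h, against 709 ± 31 in ethanol.

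**Figure D3:**
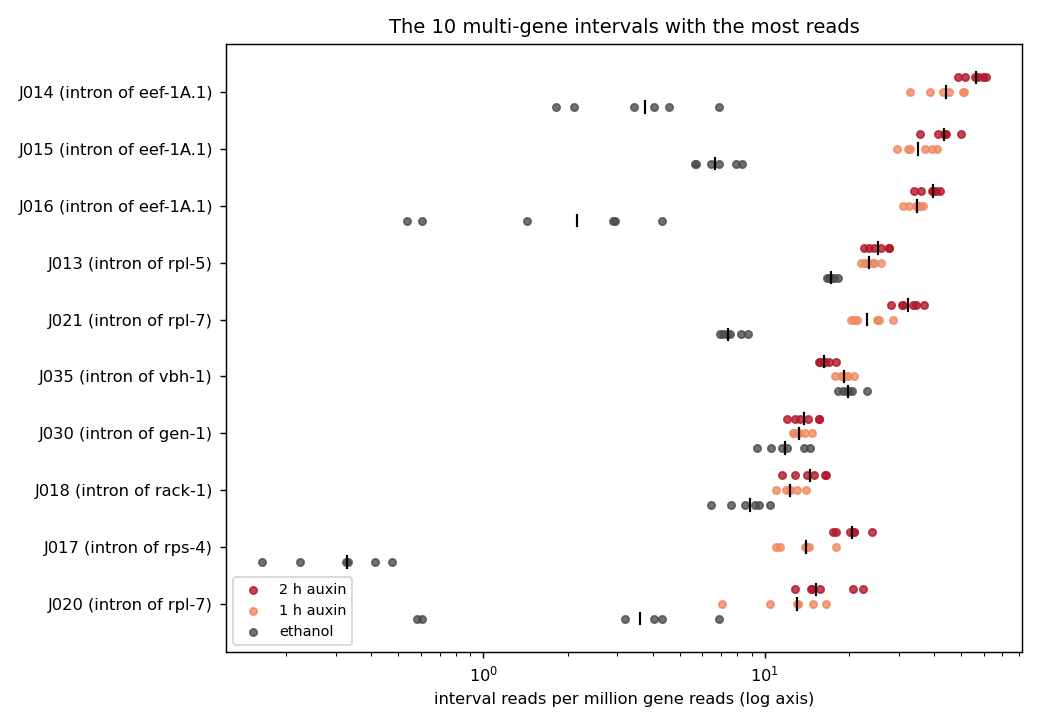
RPM (interval reads scaled to gene reads, log axis) in each of 6 libraries per group for the 10 multi-gene intervals with the highest mean over all 18 libraries, named by interval number and intron host. Each row has 2 h auxin above 1 h auxin above ethanol, and the tick is the group median; the eef-1A.1, rpl-7 and rps-4 introns have ethanol points far to the left of both auxin groups, while the vbh-1, gen-1 and rack-1 introns do not.

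The 8 largest fitted rises at 2 h, among intervals with more than 3 counts in at least 1 ethanol library, lay in 4 loci: rps-4 with 1, ssb-1 with 2, wago-1 with 3 and R10D12.13 with 2. They were ranked by the fold change itself, so the values describe the top of that ranking. ssb-1 encodes a homologue of the La RNA-binding protein and is listed with 21ur-14833. Its intron at I:4634243-4634289 had 7.03, 8.82 and 9.81 RPM at 2 h, 4.72, 5.71 and 6.53 at 1 h, and 0, 0.0785 and 0.185 in ethanol (log2 fold change 6.60 ± 0.23, adjusted p = 9.2e-33). ssb-1 gene reads also rose, by 0.26 on the log2 scale at 2 h (adjusted p = 0.001), and relative to its hosts the intron was higher by 6.36.

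wago-1 encodes an Argonaute of germline small RNA silencing and is listed with 21ur-11100. Its introns at I:7237420-7237461, I:7236977-7237024 and I:7236200-7236243 rose by 6.43, 6.06 and 6.06 on the log2 scale at 2 h and by 5.97, 5.48 and 5.75 at 1 h. The first had 7.88, 8.99 and 10.6 RPM at 2 h, 5.68, 6.69 and 7.02 at 1 h, and 0.0374, 0.103 and 0.163 in ethanol. The intron downstream, at I:7237809-7237854, had 8.84, 9.83 and 11.2 RPM at 2 h, 8.07, 10.3 and 11 at 1 h, and more than the others in ethanol, at 0.556, 0.841 and 1.23. Its log2 fold change at 2 h was 3.46 ± 0.15. In all 4 of these wago-1 introns both auxin groups stood clear of ethanol. Gene reads of wago-1 fell to 712 ± 17 RPM at 2 h, against 921 ± 28 in ethanol (log2 fold change -0.37, adjusted p = 1.2e-07).

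R10D12.13 and sao-1 are listed together on chromosome V. The R10D12.13 intron at V:13963421-13963697 (plus strand) had 15, 16.3 and 18.5 RPM at 2 h, 5.82, 8.85 and 10.2 at 1 h, and 0.0817, 0.295 and 0.371 in ethanol. It rose by 5.86 ± 0.19 at 2 h and by 4.92 ± 0.20 at 1 h, and the 2 h libraries all lay above the 1 h libraries (log2 fold change between them 0.95 ± 0.12, adjusted p = 1.3e-07). R10D12.13 gave 3.14% of the gene reads of this pair, and its gene reads fell to 9.0 ± 0.40 RPM at 2 h, against 16.4 ± 1.2 in ethanol (adjusted p = 2.7e-09). At 2 h this 1 intron had a higher RPM in every library than the mean of the whole gene, both as reads counted and not per length. How reads in introns were treated in the gene table is not stated.

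Some of the strongest signals started from almost nothing in ethanol. These are intervals with at most 3 counts in every ethanol library, for which the ratio of summed levels is given with a 95% interval that covers counting error only. 3 introns of lias-1, which encodes lipoic acid synthase and is listed with the ribosomal gene rpl-16, led this list. The lias-1 intron at III:3504400-3504443 had 9.96, 10.3 and 12.6 RPM at 2 h, 6.09, 9.10 and 9.85 at 1 h, and 0, 0.110 and 0.134 in ethanol, a ratio of 126 at 2 h (72.1 to 245). Its neighbours at III:3504746-3504789 and III:3504888-3504936 had ratios of 143 (72.5 to 333) and 182 (77.9 to 563). lias-1 gene reads rose too, to 95.9 ± 2.4 at 2 h and 101 ± 3.6 at 1 h, against 65.4 ± 1.6 in ethanol (log2 fold change 0.55 at 2 h, adjusted p = 3.0e-10). An intron of chs-1, the chitin synthase of the eggshell, had 4.38, 5.28 and 6.38 at 2 h, 2.24, 3.22 and 3.59 at 1 h, and 0, 0.0551 and 0.139 in ethanol, a ratio of 91.0 (46.0 to 212). An intron of let-70, a ubiquitin-conjugating enzyme gene listed with the autophagy gene atg-7, had a ratio of 80.2 (42.0 to 176), and an intron of sao-1 one of 116 (53.0 to 317).

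Hosts on a list of germline genes were few among these loci. 6 of the listed germline genes (dsb-1, gsp-4, mes-6, wago-1, zim-1 and zim-2) host 43 multi-gene intervals in 5 combinations. Among them 19 were tested, and 19 of 19 rose at 2 h with a median log2 fold change of 4.44. Of these, 16 are an intron of the germline gene itself, and 16 of 16 rose with a median of 4.63. Over all intervals tested, as given above, 84.8% rose and the median was 3.31. Intervals low in ethanol can pass the filter through the auxin groups alone, so these counts and medians are no result about germline hosts. The 43 intervals summed to 68.1, 81.4 and 90.7 RPM at 2 h, 57.0, 64.2 and 71.6 at 1 h, and 5.25, 5.63 and 6.56 in ethanol, while the summed gene reads of the whole germline list ran lower at 2 h than in ethanol, as given above. Of 44 intervals with a host on the somatic list (cha-1, lin-26, unc-17 and unc-22), 3 were tested and 3 rose, with a median of 3.37. All 44 summed to at most 1.58 RPM in any ethanol library. The tested ones could therefore pass the filter through the auxin groups alone, and their rises are a description only. The most heavily read of these was a lin-26 intron, at 1.17, 1.24 and 1.61 at 2 h, 0.781, 1.06 and 1.76 at 1 h, and 0, 0.148 and 0.185 in ethanol. lin-26 encodes a zinc-finger factor of epithelial fate. No test compared the lists with each other or with the background, and most intervals with a somatic host had too few reads for the fit.

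The 25 intervals that fell at 2 h came from 20 combinations, 15 of them also fell at 1 h, and 14 also fell relative to their summed hosts. For some of the 14 that sum was mainly another gene. The intron host gave 0.325% of it for a Y43B11AR.3 fall and 0.793% for a K09H9.7 fall. Relative to the intron host alone, which leaves out intervals without one, 5 multi-gene intervals in all were lower at 2 h. The median length of the 25 was 223 bases, and 5 of the 25 were an annotated intron of no listed host. The largest fall was in an intron of Y104H12D.2, listed with rmif-2, which had 0.134, 0.243 and 0.357 RPM at 2 h, 0.173, 0.385 and 0.541 at 1 h, and 0.692, 0.896 and 0.936 in ethanol (log2 fold change -1.81 ± 0.28, adjusted p = 2.7e-08). All auxin libraries were below all ethanol libraries, with 3 to 8 counts per library at 2 h. A long intron of T10C6.7 (1012 bases) had 1.5, 1.90 and 2.45 at 2 h, 2.30, 2.87 and 4.03 at 1 h, and 4.79, 5.83 and 6.82 in ethanol. T10C6.7 gene reads fell with it, by 1.24 on the log2 scale at 2 h, and relative to the host the fall of the intron was -0.40 (adjusted p = 0.0052).

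3 of the 25 falls were at Y73B3A.18 and Y73B3A.20 on chromosome X. The interval at X:58016-58838 had 0.62, 0.938 and 1.23 RPM at 2 h, 0.831, 1.00 and 1.04 at 1 h, and 2.12, 2.46 and 2.84 in ethanol. This interval overlaps an annotated host exon and is an intron of neither host, so its reads cannot be told from exon reads. The other named falls were in introns of genes of several kinds, among them hrpl-1 (an hnRNP gene), alh-11 (an aldehyde dehydrogenase gene), slx-1 (a DNA repair nuclease gene) and rnp-7, which encodes the U1 snRNP 70K protein. The rnp-7 intron at III:7159745-7160538 was the most heavily read fall after vbh-1, with 6.93, 7.73 and 8.39 at 2 h, 6.45, 7.02 and 8.90 at 1 h, and 8.54, 8.98 and 10.9 in ethanol (log2 fold change -0.28 ± 0.11, adjusted p = 0.02). Relative to its hosts it gave -0.03 (adjusted p = 0.82).

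Between 2 h and 1 h most called intervals were higher at 2 h. The largest such rise was in a K09H9.7 intron of the vbh-1 locus, with 0.519, 0.605 and 0.893 RPM at 2 h, 0.0976, 0.131 and 0.415 at 1 h, and 0, 0.0182 and 0.0551 in ethanol (2 h over 1 h log2 fold change 1.73 ± 0.32, adjusted p = 6.1e-05). An intron of polk-1, a DNA polymerase gene of lesion bypass, had 1.45, 2.08 and 2.38 at 2 h, 0.489, 0.714 and 0.947 at 1 h, and 0, 0.134 and 0.232 in ethanol (1.46 ± 0.21, adjusted p = 6.4e-07). An intron of fcp-1, a phosphatase of the RNA polymerase II tail, had 1.07, 1.49 and 1.69 at 2 h, 0.293, 0.476 and 0.911 at 1 h, and at most 0.0551 in ethanol (1.39 ± 0.22, adjusted p = 6.4e-06). In all 3 the 2 h libraries lay above the 1 h libraries. In the other direction, a rict-1 intron (1232 bases, a TORC2 subunit gene listed with col-86) had 0.264, 0.560 and 0.672 at 2 h, 0.720, 0.873 and 1.17 at 1 h, and 0.275, 0.420 and 0.531 in ethanol. It rose at 1 h (adjusted p = 3.0e-05) and not detectably at 2 h (adjusted p = 0.34). A long xrn-2 intron (1116 bases, an exoribonuclease gene) had 0.283, 0.418 and 0.581 at 2 h, 0.354, 0.774 and 1.08 at 1 h, and 0.0927, 0.174 and 0.225 in ethanol, and was above ethanol at both times.

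Counts of calls relative to the summed reads of the hosts were close to those above. Of 1063 tested intervals with a host in the gene table, 909 were higher and 14 lower at 2 h relative to their hosts, beside 85.7% of all intervals so tested (85.1% higher and 0.549% lower). At 1 h, 910 were higher and 13 lower, beside 84.9% of all (84.3% higher and 0.616% lower). Between 2 h and 1 h, 378 were higher and 9 lower, beside 37.3% of all (36.5% higher and 0.811% lower). Those lower numbered 5 in each fit without batch I, II, V, VII or X. Over all intervals they numbered 99, 100, 82, 92 and 120 in that order, against 121 with all batches. The median log2 fold change relative to hosts was 3.45 at 2 h and 3.00 at 1 h. For some intervals the host sum came mainly from another gene than the one that holds the intron. Of 1019 tested intervals with 1 intron host in the gene table, the intron host gave under 50% of the summed host reads in 226 and under 10% in 48, with a median of 88.7%. Dividing by the intron host alone, an alternative added after seeing the data, gave 875 higher and 5 lower of 1015 at 2 h, beside 12671 higher and 73 lower of all 14876 intervals so tested.

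The host genes themselves moved far less. Of 878 tested host genes, 74 rose and 252 fell at 2 h, beside 32.8% of all genes called (9.72% higher and 23% lower). At 1 h, the counts were 26 higher and 100 lower, beside 10.7% of all (2.76% higher and 7.9% lower). Between 2 h and 1 h, 17 were higher and 52 lower, beside 8.15% of all (2.2% higher and 5.95% lower). The median log2 fold change of host genes was -0.00 at 2 h and -0.02 at 1 h. With batch as a block, the split was 202 higher and 311 lower at 2 h, 93 and 223 at 1 h, and 94 and 194 between 2 h and 1 h. Over all 13969 genes tested the block gave 3509 higher and 4097 lower at 2 h, 1541 and 2737 at 1 h, and 1800 and 2724 between 2 h and 1 h. The rises among host genes at 2 h numbered 44 without batch I and 45 without batch VIII, beside 795 and 810 over all genes. Those at 1 h numbered 11, 14, 11, 15 and 10 without batch I, II, V, VII or VIII, in that order. Over all genes they numbered 210, 299, 252, 275 and 219. Rises between 2 h and 1 h numbered 6, 10, 11 and 10 without batch I, V, VII or VIII, beside 125, 177, 184 and 138. Without batch VIII, 68 host genes were called at 1 h, beside 806 of all genes. Without batch I, II, V or VIII the calls between 2 h and 1 h numbered 28, 40, 34 and 32 in that order. Over all genes these calls numbered 447, 689, 511 and 500. With TMM factors of the gene table, the split was 127 higher and 217 lower at 2 h, and 25 and 37 between 2 h and 1 h, beside 2197 and 2687, and 413 and 542, over all genes. With DESeq2 it was 45 higher and 98 lower at 1 h, beside 608 and 1036 over all genes.

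In most combinations with several tested intervals all of them rose at 2 h, though by different amounts. Of 213 combinations with 2 or more tested intervals, all tested intervals rose at 2 h in 147, none rose in 21, some rose and some were not called in 35, and 10 held both a rise and a fall. The span between the smallest and largest log2 fold change within a combination had a median of 2.50 (quartiles 1.13 and 4.03). Fitted values of intervals at or under the floor in ethanol depend on the fit and are no bounds. Over the 173 combinations with 2 or more tested intervals above 3 counts in at least 1 ethanol library, a restriction added after seeing the data, the median span was 1.5 (quartiles 0.605 and 2.89). The vbh-1 locus held both, with 7 rises and 2 falls among 9 tested intervals, and rps-4 held 1 of each, the fall being in its neighbour Y43B11AR.3 at IV:7083241-7083371. Y43B11AR.3 gene reads fell to 4.50 ± 0.63 RPM at 2 h, against 13.1 ± 0.95 in ethanol. The npp-6 and slx-1 locus held 9 rises and 1 fall among 13. npp-6 encodes a nuclear pore protein.

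In 41 combinations, 2 different intron hosts each had 2 or more tested introns. The medians of the 2 hosts differed by 1.34 log2 units in the middle of these combinations and by up to 4.26, by more than 2 in 14, and in 11 the introns of one host all exceeded those of the other. Since the higher host was taken as whichever was higher, these differences are at least 0 by construction and carry no test. Several of the higher medians rest on introns with few ethanol counts, such as 3 of the 4 lias-1 introns, and are fitted values in the same sense. The 6 combinations with the largest differences, chosen after their values were seen, are described next.

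**Figure D4:**
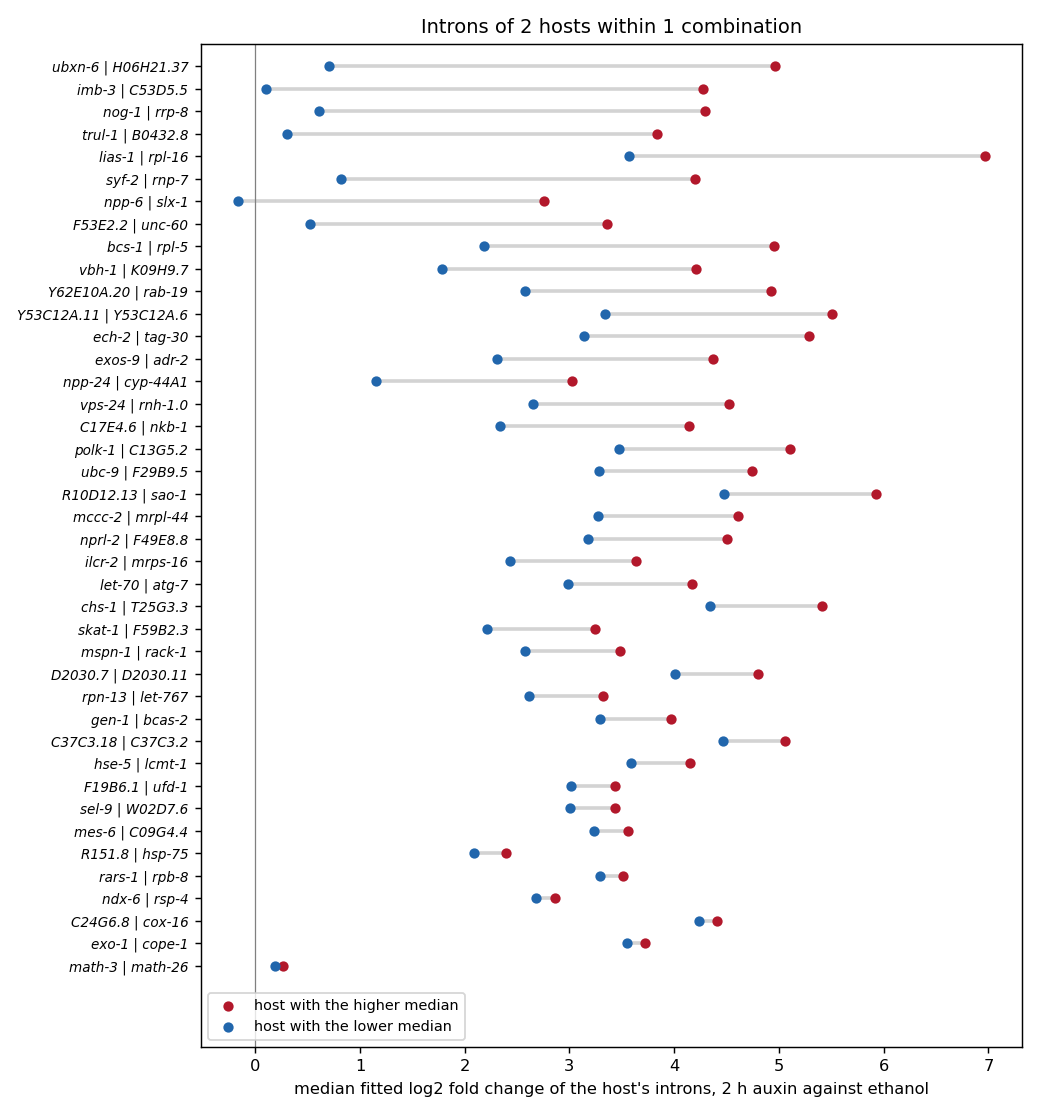
Median fitted log2 fold change at 2 h of auxin against ethanol for the introns of each of 2 hosts in the 41 combinations where both had 2 or more tested introns, sorted by the difference; each row names the host with the higher median before the host with the lower one. The differences run from 4.26 at the top to 0.0803 at the bottom.

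At ubxn-6, a gene of a UBX-domain protein, 3 introns summed to 3.96, 4.56 and 6.56 RPM at 2 h, 2.39, 3.75 and 4.36 at 1 h, and 0, 0.286 and 0.402 in ethanol. The 2 introns of its co-listed gene H06H21.37 summed to 8.26, 9.93 and 10.6 at 2 h, 8.88, 9.77 and 11.8 at 1 h, and 5.99, 8.15 and 8.56 in ethanol. The ubxn-6 introns therefore stood clear of ethanol, whereas the H06H21.37 introns overlapped it at 2 h, and the median log2 fold changes were 4.96 and 0.70. The ubxn-6 gene reads had a log2 fold change of -0.15 at 2 h, which missed the threshold (adjusted p = 0.082) and passed it with batch as a block (adjusted p = 0.00061). Those of H06H21.37 had -0.08 (adjusted p = 0.48, and 0.41 with the block).

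imb-3 encodes an importin beta, and its 6 tested introns summed to 20.7, 23.1 and 26.6 RPM at 2 h, 18.4, 20.2 and 21.5 at 1 h, and 0.805, 1.30 and 1.68 in ethanol. The 2 tested introns of C53D5.5, a gene on the same strand, summed to 0.778, 1.05 and 1.34 at 2 h, 0.857, 1.35 and 1.49 at 1 h, and 0.694, 0.905 and 1.21 in ethanol. All 6 imb-3 introns rose and neither C53D5.5 intron was called. C53D5.5 gene reads were 21.7 ± 1.6 RPM at 2 h and 20.8 ± 1.1 in ethanol, and imb-3 gene reads were 814 ± 46 at 2 h and 801 ± 43 in ethanol (SD, n = 6 each).

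At rrp-8 and nog-1, whose products act on ribosomal RNA and in ribosome assembly, the 4 nog-1 introns had a median log2 fold change of 4.29 and the 3 rrp-8 introns one of 0.60. All 7 rose. The trul-1 introns (median 3.84, with 4 of 5 rising) and the B0432.8 introns (median 0.30, with 1 of 2 rising) share a combination on chromosome II. At rnp-7 and syf-2, which both encode factors of splicing, the 2 syf-2 introns rose, by a median of 4.20, while the 4 rnp-7 introns held 2 rises, 1 fall and a median of 0.82. Their summed levels were 2.01, 2.41 and 3.12 for syf-2 at 2 h, 1.13, 1.76 and 1.80 at 1 h, and 0.0408, 0.182 and 0.412 in ethanol, while rnp-7 introns had 9.42, 10.9 and 11.5 at 2 h, 9.34, 10.1 and 11.7 at 1 h, and 10.1, 10.5 and 12.9 in ethanol.

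At rpl-16 and lias-1 the tested introns of both hosts rose, by a median of 6.97 for the 4 lias-1 introns and 3.56 for the 2 rpl-16 introns. Gene reads of rpl-16 were 1194 ± 50 RPM at 2 h and 1117 ± 47 in ethanol (adjusted p = 0.091, and 0.0070 with batch as a block). The lias-1 introns held 27.7, 33.1 and 37.3 at 2 h, 20.2, 27.1 and 29.1 RPM at 1 h, and 0.185, 0.349 and 0.437 in ethanol. The rpl-16 introns held 15.2, 21.2 and 26.6 at 2 h, 13.2, 17.6 and 22.8 at 1 h, and 0.626, 2.42 and 5.88 in ethanol. All auxin libraries lay above all ethanol libraries in both sums.

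**Figure D5:**
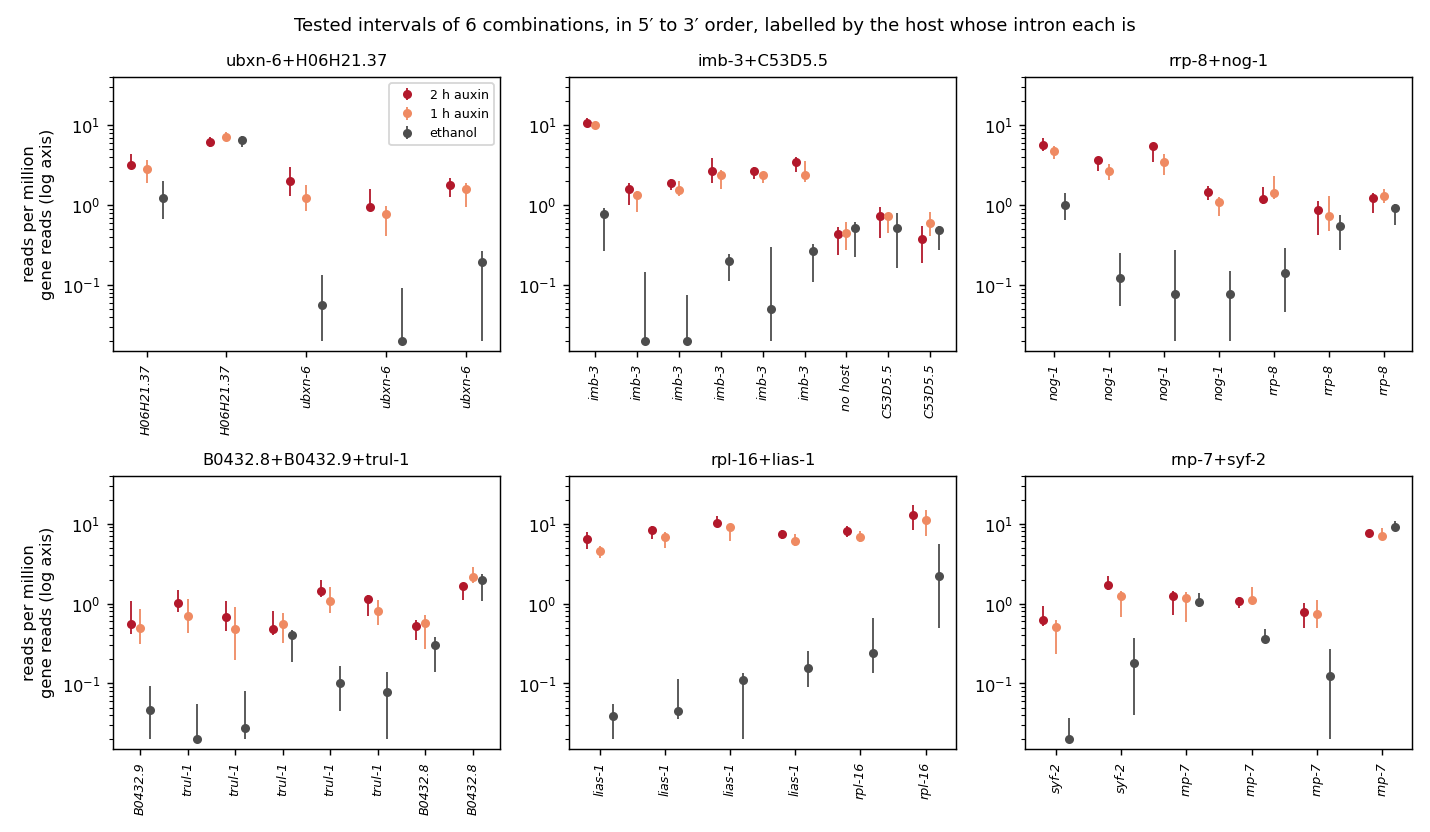
RPM (interval reads scaled to gene reads, log axis) of the tested intervals in the 6 combinations with the largest difference between hosts, in 5′ to 3′ order of the locus and labelled by intron host; points are medians and lines run from the lowest to the highest of 6 libraries, with 2 h auxin left of 1 h auxin left of ethanol. Values under 0.02, zeros included, are drawn at 0.02; the ubxn-6, imb-3, nog-1 and lias-1 introns show the widest gaps between auxin and ethanol points, and the C53D5.5 intervals show overlapping ones.

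For 127 intervals, 2 of the listed hosts have the interval as an annotated intron. Of these, 25 were tested, 23 rose at 2 h and none fell, beside 84.8% higher and 1.48% lower over all intervals tested. At 1 h, 22 rose, beside 83.1% of all. The median log2 fold change of the 25 was 3.33 at 2 h, the same as over all tested multi-gene intervals. Several of the 25 had few counts in ethanol and could pass the filter through the auxin groups alone. One of them is an intron of both mes-6, which encodes a subunit of the germline Polycomb complex, and C09G4.4. That interval, at IV:8513062-8513172, had 1.73, 2.12 and 2.63 RPM at 2 h, 1.30, 1.79 and 1.94 at 1 h, and 0, 0.0428 and 0.110 in ethanol. It rose at 2 h (adjusted p = 6.3e-23). With 5 counts over all ethanol libraries, the ratio of summed levels was 59.9, with a 95% interval of 25.4 to 186 for counting error only. Gene reads of both hosts fell, by 0.62 for mes-6 and 0.66 for C09G4.4 on the log2 scale at 2 h. All 5 tested introns that exos-4.1, an RNA exosome gene, has in common with the mitochondrial import gene tin-9.2 rose. Of these, 4 overlap an exon of a listed host, so their reads cannot be told from exon reads, and their log2 fold changes ran from 1.73 to 3.14. The other had 2 counts over all ethanol libraries and a ratio of 44.6 (12 to 374). The 2 that were not called lie in B0334.5 with emc-5 (log2 fold change -0.03 ± 0.15) and in eat-18 with lev-10 (0.06 ± 0.27). The interval in B0334.5 also overlaps an exon of a listed host. So do those of the 25 in K07F5.15 with K07F5.22, popl-7 with Y62E10A.24, sam-4 with F59E12.17, and F59E12.6 with F59E12.15. Those in K07F5.15, popl-7, sam-4 and F59E12.6 all rose at 2 h, and their reads cannot be told from exon reads.

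Intervals without an intron host had fold changes near 0 in the median. Of the 68 that are an intron of no listed host, only 18 were tested, with a median log2 fold change of -0.08. At 2 h 6 rose and 5 fell, beside 84.8% higher and 1.48% lower over all intervals tested. The falls include neighbouring intervals of 1 locus, at X:58016-58838 and X:58996-59300. The summed level of the 68 was 34.4, 37.1 and 39.5 RPM at 2 h, 36.0, 37.2 and 40.8 at 1 h, and 31.2, 32.9 and 34.5 in ethanol. Of 168 that overlap an exon of a listed host, 71 were tested, with 42 rises, 5 falls and a median of 1.22, against 874 rises, 20 falls and a median of 3.40 for the 998 tested intervals clear of host exons. Reads in such an overlap cannot be told from exon reads of that host.

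Multi-gene intervals of chromosome X were close to the other intervals of that chromosome. On chromosome X, 30 of 591 multi-gene intervals were tested, 8 rose and 3 fell at 2 h, and the median log2 fold change was 0.26. Over all tested intervals of chromosome X, 31.1% rose, 4.19% fell and the median was 0.27. Summed levels on X were 52.7, 57.8 and 66.6 RPM at 2 h, 52.7, 54.2 and 57.9 at 1 h, and 44.1, 47.1 and 48.3 in ethanol. On the autosomes the median log2 fold change of multi-gene intervals ran from 3.03 on chromosome II to 3.61 on chromosomes I and V. Over all tested intervals the autosome medians ran from 3.34 on chromosome I to 3.49 on chromosome II.

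The combinations with the most intervals were mostly too thinly read to test. cla-1, a gene of the synaptic active zone listed with 21ur-14888, had 38 intervals that summed to at most 0.223 RPM at 2 h, 0.197 at 1 h and 0.417 in ethanol. wdfy-3 with C26H9A.4 had 35, ZC84.1 with ZC84.6 had 32 and gei-3 with nhr-27 had 31, and no interval of these 4 combinations was tested. The exception was myo-6 with exo-1 and cope-1, a myosin gene beside a DNA exonuclease gene and a coatomer gene. 11 of its 33 intervals were tested and all 11 rose at 2 h, beside 84.8% of all intervals tested. The sum over the 33 was 10.3, 11.5 and 13.1 at 2 h, 6.31, 7.49 and 9.02 at 1 h, and 0.742, 1.43 and 1.80 in ethanol. Intervals this low in ethanol can pass the filter through the auxin groups alone, so the count of rises is a description only. Gene reads of exo-1 fell by 0.26 and those of cope-1 by 0.13 on the log2 scale at 2 h, while those of myo-6 rose by 0.23 (adjusted p = 0.00065, 0.029 and 0.043).

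Among loci known from neurobiology, cha-1 and unc-17, which make and package acetylcholine and share a first exon, had 12 intervals with 4 to 13 counts in all per 2 h library, 4 to 11 per 1 h library and 5 to 9 per ethanol library. None reached the filter, so a change in them was not detectable at this depth. eat-18 lies within lev-10, and both encode partners of acetylcholine receptors. Of their 13 intervals, 11 are introns of both genes, and the sums were 1.21, 1.34 and 1.91 RPM at 2 h, 1.01, 1.21 and 1.85 at 1 h, and 1.16, 1.43 and 1.76 in ethanol, overlapping throughout. The 1 tested interval, at I:14398858-14399417, had a log2 fold change of 0.06 ± 0.27 at 2 h and -0.04 ± 0.27 at 1 h.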

How the data were processed

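The data are RNA-seq libraries of poly-A selected RNA made with a stranded TruSeq kit, per the labels' protocols. The deposited files are 2 count tables made by the authors, one by protein-coding gene and one by intron interval, in whole numbers and not normalized; lengths in bases are other columns the authors deposited and were not used as measurements. The submitters' processing notes name Trimmomatic, cutadapt, STAR, SAMtools, Picard, featureCounts, limma and edgeR without roles or versions. The genome build, the strand setting of the interval table and the treatment of reads that overlap several hosts are not given in the sources used here, and reads of overlapping hosts cannot be told apart. Coordinates are on WBcel235 (Ensembl annotation), since 98.9% of the multi-gene intervals match an annotated intron of it. There were 0 value columns without a sample.

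Both tables were fitted whole with edgeR 4.0.16 (R 4.3.3): filterByExpr with a minimum count of 10, quasi-likelihood test on group with all 18 libraries, library sizes equal to gene-table column sums, Benjamini-Hochberg adjustment over every feature tested and a threshold of 0.05. For values relative to hosts, the offset was the natural log of summed host counts plus 1. DESeq2 1.42.0, other scalings, filters, sample sets and a batch block were alternatives. Batches come from the labels: deviations from group means correlated at 0.19 to 0.73 within batches and -0.56 to 0.43 between them for genes, and at 0.0088 to 0.28 and -0.14 to 0.12 for intervals. Nothing says whether the libraries of a group came from separate cultures beyond the batch, so p-values measure the spread between these libraries. The fits were tested on simulated data, in which far fewer features changed than here and batches had no effect. Counting intervals and floors hold counting error alone, as reads have no molecular identifiers.

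Named intervals are the 10 with the most reads, the largest called rises (8) and falls (6) against ethanol, the 4 largest each way between 2 h and 1 h, the 6 highest at 2 h with at most 3 counts in every ethanol library, the top interval of the 5 largest combinations and of each marker list, and the cha-1, unc-17, eat-18 and lev-10 loci; not all are described singly. The members, gene lists and rules were chosen with earlier results of these data known. Genes beyond these rules were named after their values were seen. Symbols were taken from the annotation by gene ID, for 1849 of 1856 hosts. No genome sequence was used.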

Additional observations from a re-analysis of the deposited data

Results flagged for a closer look

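In 162 groups of 6 libraries (the named intervals and the sums by kind of host, in each treatment group), 8 had 1 library farther from the others than Dixon's 95% critical value for the gap as a share of the group's range. Chance alone flags about 1 group in 20. The R10D12.13 intron V:13963421-13963697 had 0.0817 RPM in ethanol replicate II, against 0.275 to 0.371 in the other ethanol libraries. The Y73B3A.18 and Y73B3A.20 interval X:58016-58838 had 0.831 in 1 h auxin replicate VII, against 0.983 to 1.04. The Y32F6A.4 intron listed with tag-314 had 0.716 in ethanol replicate X, against 0.417 to 0.492. The K09H9.7 intron I:3151034-3151081 of the vbh-1 locus had 0.893 in 2 h auxin replicate VII, against 0.519 to 0.636. The lias-1 intron III:3504746-3504789 had 0.112 in ethanol replicate I, against 0.0364 to 0.0551, and the lias-1 intron III:3504888-3504936 had 0 in ethanol replicate VII, against 0.0364 to 0.0551; these values stand for 3 counts or fewer. The lin-26 intron listed with lir-1 had 1.61 in 2 h auxin replicate X, against 1.17 to 1.32. Intervals with no protein-coding host summed to 1.98 in ethanol replicate X, against 1.38 to 1.58. Apart from the Y73B3A.18 and Y32F6A.4 cases, all auxin libraries lay above all ethanol libraries, the library that stands apart included.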

How the results depend on the processing

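Counts of multi-gene intervals called grew where more intervals were tested, while the share called fell. With no filter on low counts, 1740 of 4924 were called at 2 h and 1637 at 1 h. These are 35.3% and 33.2%, against 88.0% and 85.7% with the filter. Over all 82049 intervals so tested, 25977 and 23737 were called. Relative to hosts the calls were 1805 and 1695 of 4739, beside 26171 and 24090 of all 74347. With DESeq2 they were 1628 and 1555 of 4924, beside 23874 and 22335 of all 82046. Between 2 h and 1 h, interval-based TMM factors gave 145 calls of 1087, beside 2018 of all 15303 intervals tested. Leaving out 1 batch gave 213 to 289 calls, beside 3081 to 4155 over all intervals, both lowest without replicate V. For host genes, leaving out 1 batch gave 68 to 125 calls at 1 h (68 without replicate VIII), beside 806 to 1443 over all genes. Between 2 h and 1 h it gave 28 to 57, beside 447 to 942 over all genes. The batch as a replicate block raised host gene calls to 513 at 2 h, 316 at 1 h and 288 between them, and calls over all genes to 7606, 4278 and 4524 (without the block 4576, 1488 and 1138), and moved no count of called multi-gene intervals by more than 1.5 times. Without the 1% of members with the most reads (60 intervals), the summed levels were 1771 at 2 h, 1410 at 1 h and 454 in ethanol. Under interval-based TMM factors the log2 fold change turned to -0.71 at 2 h and -0.54 at 1 h for the rpl-5 intron, to -1.03 and -0.81 for the gen-1 intron, to -0.52 and -0.45 for the rack-1 intron, and to -1.19 at 2 h for the tested eat-18 and lev-10 interval. Leaving out 1 batch put that last interval, near 0 with gene-table scaling, between -0.038 (without replicate V) and 0.18 for 2 h of auxin. For 1 h of auxin the lowest value was -0.19, and the sign turned without replicate II (0.082) and without replicate VIII (0.067). Of 811 values of named intervals under alternatives, 778 kept direction and side of the threshold, 17 lost and 6 gained a call, and 10 changed sign, as given here. The cause of the changes under the block, the scaling and the left-out batches was not tested. Depth limits the rest: 1069 of 5919 members could be tested, and low intervals rest on a few counts.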

Other observations

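The single combination with 4 hosts in the gene table (math-3, math-26, math-27 and F36H5.14, on chromosome II) held 27 intervals, of which 4 were tested. 2 of them rose at 2 h and none fell, with a median log2 fold change of 0.25, and relative to the summed hosts none was called. Gene reads rose by 0.24 for math-3, 0.31 for math-26 and 0.25 for math-27 on the log2 scale at 2 h (adjusted p = 0.015, 0.00054 and 0.035). The names mark members of 1 gene family, so reads may be split between copies and these values are uncertain.

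At Y53C12A.6 with Y53C12A.11, picked after its values were seen, the 4 tested intervals all rose at 2 h. The 2 introns of Y53C12A.11 summed to 5.32, 6.38 and 8.08 RPM at 2 h, 2.30, 3.26 and 3.98 at 1 h, and 0.619, 0.870 and 1.27 in ethanol. The gene table lists Y53C12A.6 at 0 in every group, while its 2 tested introns summed to 6.93, 8.51 and 8.89 at 2 h, 4.59, 5.33 and 6.01 at 1 h, and 2.42, 2.72 and 3.38 in ethanol.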
